A study of Sus scrofa with 6 samples.

Results

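The genes described here encode the signalling part of the T cell receptor: the CD3 chains CD3D, CD3E, CD3G and CD247, the kinases LCK and ZAP70, the adaptor LAT, the regulator THEMIS and the surface protein CD7. They were chosen by name. Of the 9 symbols, 8 were found among the 20648 genes of the files, and ZAP70 is not analysed here. The cells came from the ileum of male large white piglets kept on their mothers' milk, with 1 scRNA-seq library each at 0, 1, 3, 7, 14 and 21 days after birth. The paper gives several piglets per age and a single chip channel per age, so animals cannot be told apart within a library, and no agent, allele or treatment distinguished the groups other than age. Cell suspensions were made from scraped mucosa with EDTA and TrypLE, a protocol for epithelial cells with no stated step to enrich lymphocytes. By the thresholds given below, B cells still made up 13.4% of cells on day 0 and 87.8% on day 21. The labels of the samples give ileum, with no sort or gate.

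An antigen receptor on a T cell cannot signal by itself. It is held on the membrane by CD3D, CD3E, CD3G and the zeta chain CD247, whose tails carry the tyrosine motifs. LCK, brought in by the coreceptors CD8 and CD4, phosphorylates these motifs, ZAP70 docks on them and phosphorylates LAT, and LAT then gathers the enzymes and adaptors of the later steps. THEMIS binds to this machinery and tunes its strength in developing T cells. CD7 is an immunoglobulin-family protein of T and NK cells that is used as a T lineage marker. CD247 also serves NK cell receptors.

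In the pig genome build Sscrofa11.1, the 3 CD3 genes lie side by side on chromosome 9, with CD3E at chr9:45619730-45633972, CD3D at chr9:45640475-45644153 and CD3G at chr9:45645243-45656779. The gap between CD3E and CD3D is 6502 bases and that between CD3D and CD3G is 1089 bases. The other members lie on separate chromosomes, with CD247 at chr4:83494266-83586887, LCK at chr6:88719886-88745922, LAT at chr3:18638992-18644353, THEMIS at chr1:35333210-35530710 and CD7 at chr12:740345-744876. Neighbours differed widely in count, for the T cells of day 0 gave 6127 UMIs of CD3E, 79 of CD3D and 4305 of CD3G. A UMI is a molecular tag that counts a captured transcript once, near its 3′ end. No order of expression between genes was read from the counts, because capture at the 3′ end can differ between genes.

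Barcodes with at least 1000 UMIs and 500 genes were taken as cells, 76099 in all and 10836 to 15956 per library, with a median of 3693 to 4560 UMIs per cell. The libraries held 77391932 to 100348769 UMIs. T cells were those with at least 2 UMIs of CD3E and CD3G together and none of the B cell genes MS4A1 and PAX5. They numbered 1872, 1653, 349, 432, 357 and 178 in order of age, or 17.3%, 14.4%, 3.07%, 3.42%, 2.24% and 1.29% of cells. B cells, with at least 2 UMIs of MS4A1 and PAX5 and none of CD3E and CD3G, took the opposite course, from 1457 on day 0 to 12131 on day 21. The median depth of T cells was 3523, 4192, 4499, 4280, 2958 and 2587 UMIs in order of age. A gate on UMIs can miss cells at low depth, and the part of depth in these counts was not tested. Innate lymphoid cells were defined by at least 5 UMIs of TAC3, NCR2, IL23R and KLRB1 and at most 1 UMI of CD3E and CD3G. There were 431, 425, 760, 96, 109 and 5 of them, and the 5 cells of day 21 were left out of the test. Levels are UMIs of a gene per 10000 UMIs of all cells of a class. Intervals are exact Poisson intervals at 95%, which cover counting error only. With 1 library per age there is no replicate at an age, so no p-value is given between ages. Between cell classes, the libraries served as replicates.

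Markers of the labelled cell types were checked. The list of 10 T cell markers that the gate did not use, among them CD2, CD5 and CD6, summed to 6.83 to 12.7 per 10000 in T cells of the 6 libraries, and all 10 were detected in each library. The 13 innate lymphoid markers, 4 of which were in the gate, summed to 71.9 to 95.8 per 10000 in innate lymphoid cells of days 0 to 14 and to 5.95 to 14.6 in T cells. The same innate cells held T cell markers at 4.85 to 6.89 per 10000. Epithelial RNA differed between ages. In T cells the 8 epithelial markers summed to 12.4, 3.94, 0.36, 2.14, 0.34 and 0.24 per 10000 in order of age. B cell markers in T cells summed to 0.20 to 1.02. Between libraries, 672 cell barcodes recurred, 31 to 68 for each pair of libraries.

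The gate on CD3E and CD3G left the other 6 members free, and their levels were set against it in cells without a UMI of MS4A1 or PAX5. Levels are given as the median over the 6 libraries, since the libraries differ and fill the steps unequally. In the 14590 cells with no UMI of CD3E or CD3G that were not innate lymphoid cells, the medians were 0.535 per 10000 for CD247, 0.199 for LCK, 0.0524 for LAT, 0.0283 for CD7 and 0.0415 for THEMIS. Just outside the gate, in the 898 cells with 1 UMI, they were 1.94 for CD247, 1.49 for LCK, 0.777 for LAT, 1.32 for CD7 and 0.728 for THEMIS. Just inside it, in the 873 cells with 2 UMIs, they were 2.83, 2.09, 1.01, 1.998 and 0.811 in the same order. For LCK, LAT, CD7 and THEMIS the lowest library with 1 UMI lay above the highest library with none, while for CD247 the libraries with none ranged from 0.0942 to 1.89 and those with 1 UMI from 0.871 to 4.13. How many of all genes lay apart likewise was not counted, so this only describes the members. In the 2435 cells with 5 UMIs or more, the medians were 3.80 for CD247, 3.01 for LCK, 1.51 for LAT, 1.2 for CD7 and 0.777 for THEMIS. CD3D was at 0.00028 with no UMI, 0.0512 with 1 UMI and 0.0904 with 2 UMIs.

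**Figure D1:**
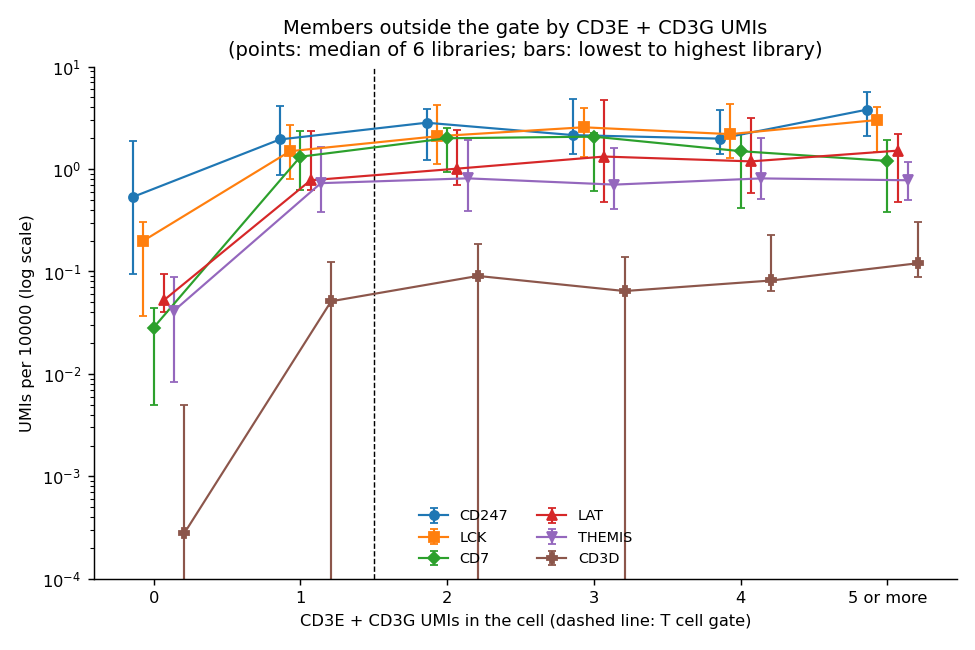
Level of the 6 members outside the gate (UMIs per 10000, log axis) against the number of CD3E and CD3G UMIs in the cell, in cells without MS4A1 or PAX5. Points are medians over the 6 libraries, bars run from the lowest to the highest library, bars that reach the lower edge include a library at 0, and the dashed line is the gate of 2 UMIs. The median for LCK goes from 0.199 with no UMI to 1.49 with 1 UMI and 2.09 with 2 UMIs.

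The gate set some cells with CD3 aside. Cells with at least 2 CD3 UMIs and also a UMI of MS4A1 or PAX5 numbered 130, 111, 74, 161, 165 and 133 in order of age. They held 6.22% of the CD3E UMIs of the day 0 cells and 41.1% of those of day 21, at medians of 7252 and 4283 UMIs per cell, above those of the T cells. Whether they were doublets was not tested.

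The receptor chains CD3E and CD3G stood higher in the later libraries. CD3E was at 6.49, 5.65, 6.70, 11.2, 13.8 and 13.0 UMIs per 10000 in T cells on days 0, 1, 3, 7, 14 and 21, and CD3G at 4.56, 3.48, 5.24, 8.31, 7.43 and 9.21. Both belong to the gate, and the levels are a description of the cells so chosen. The libraries of days 7 to 21 lay above those of days 0 to 3 for both genes. Because these genes chose the cells, this order is not read as a change with age. The T cells had a median of 3523, 4192 and 4499 UMIs on days 0, 1 and 3. On days 7, 14 and 21 the medians were 4280, 2958 and 2587. The part of the gate and of depth in these levels was not tested, and the share of all genes with the same order is not given. CD3D was sparse, with 79, 86, 24, 53, 13 and 13 UMIs, or 0.0837, 0.101, 0.126, 0.217, 0.0974 and 0.242 per 10000. A CD3D UMI was found in 3.64% to 11% of the T cells of a library, against 91.5% to 96.9% for CD3E.

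CD247, the zeta chain, was not in the gate. Its level in T cells was 1.92, 1.74, 3.42, 4.13, 4.85 and 4.41 per 10000. The ratio of day 1 to day 0 was 0.91 (95% interval 0.85 to 0.97), that of day 3 to day 1 was 1.97 (1.79 to 2.16), that of day 7 to day 3 was 1.21 (1.09 to 1.33) and that of day 14 to day 7 was 1.17 (1.06 to 1.30). The level on day 21 was 2.30 times that of day 0 (2.0 to 2.64). Between days 14 and 21 the interval of the ratio, 0.78 to 1.06, held 1.

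LCK, the kinase that phosphorylates the CD3 tails, stood at 1.39, 1.43, 2.17, 3.87, 3.68 and 4.04 per 10000, and neighbouring ages did not differ beyond counting error from day 0 to day 1 or among days 7, 14 and 21. The day 21 level was 2.90 times that of day 0 (2.50 to 3.35). LAT, the membrane adaptor downstream of the kinases, ranged more widely, at 0.529, 0.918, 0.970, 2.03, 2.13 and 2.33 per 10000. Its day 21 level was 4.4 times that of day 0 (3.59 to 5.36), with steps of 1.74 (1.55 to 1.95) from day 0 to day 1 and of 2.10 (1.77 to 2.50) from day 3 to day 7.

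THEMIS and CD7 followed other courses. THEMIS was at 0.651, 0.488, 1.30, 0.512, 0.884 and 1.12 per 10000, with its highest level in the day 3 library, 2.65 times that of day 1 (2.26 to 3.11) and above day 7, where the ratio to day 3 was 0.40 (0.32 to 0.49). CD7 was at 1.26, 1.88, 1.57, 0.639, 0.442 and 1.97 per 10000. Its lowest level was that of day 14, with 59 UMIs, and its level on day 21 was 4.46 times as high (3.22 to 6.24). The day 21 value rests on 106 UMIs in 178 T cells of a single library.

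**Figure D2:**
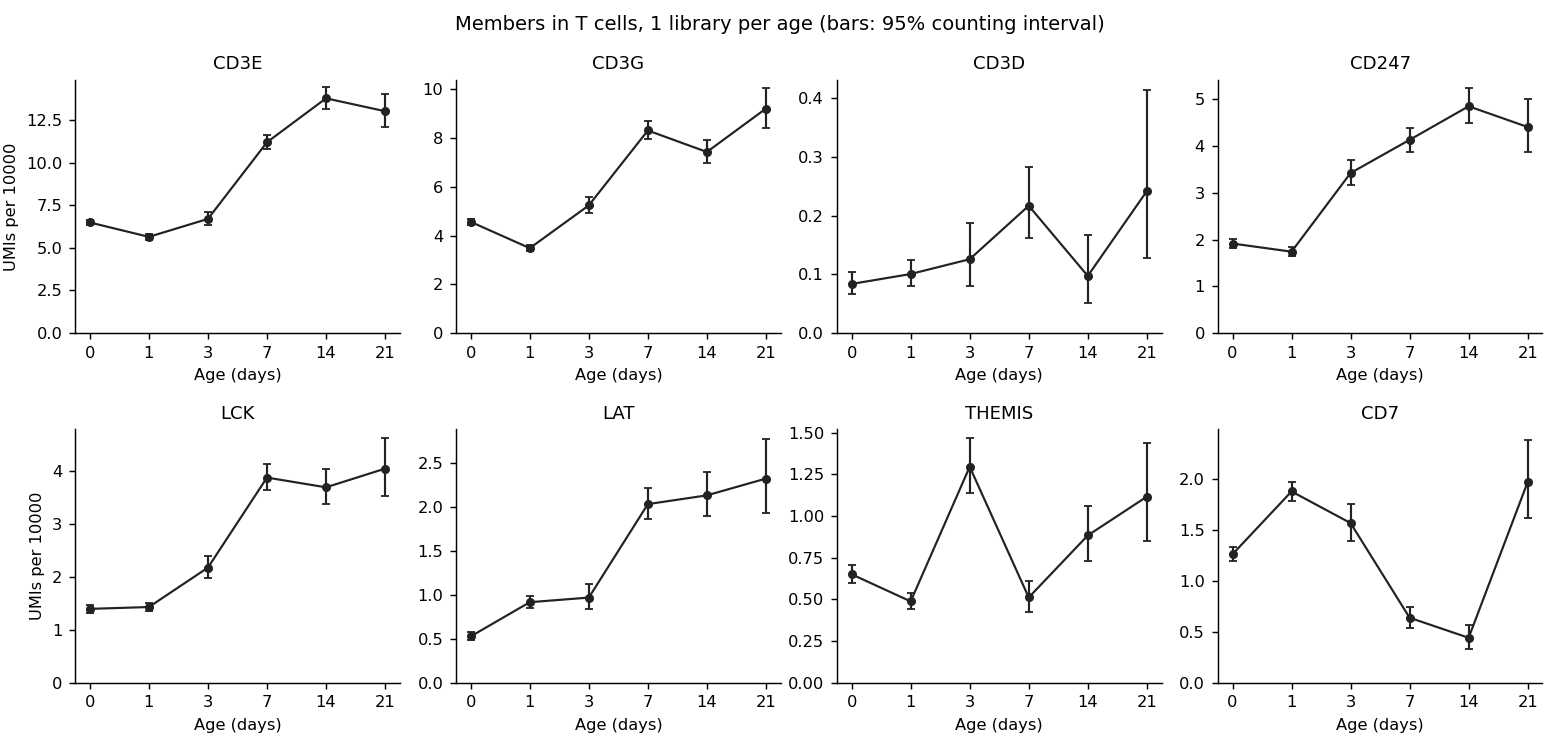
Level of each of the 8 members in T cells (UMIs per 10000, each axis from 0) by age in days, 1 library per age. Points are levels over all T cells of a library and bars are 95% counting intervals. LAT goes from 0.529 on day 0 to 2.33 on day 21, while THEMIS peaks at 1.30 on day 3 and CD7 is lowest at 0.442 on day 14.

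Summed, the 6 members outside the gate gave 5.83, 6.56, 9.56, 11.4, 12.1 and 14.1 UMIs per 10000 in T cells, and the ratio of day 21 to day 0 was 2.42 (2.24 to 2.61). This has to be read against the other genes, for the median gene of the T cells also stood 1.34 times higher on day 21, a shift of 0.43 on the log2 scale. Of 2635 genes with a mean level of at least 0.5 in these libraries, 18.1% were at least 2 times higher on day 21 and 5.81% at least 2 times lower. Of the 5 members outside the gate with that level, CD247, LCK and LAT were at least 2 times higher, and THEMIS at 1.72 and CD7 at 1.56 were not. CD3E and CD3G, at 2.01 and 2.02, are genes of the gate and are not counted. After scaling by TMM factors, which set the bulk of genes equal, 6.6% of genes were at least 2 times higher and 9.68% at least 2 times lower. Then 2 of the 5 members were at least 2 times higher, LCK at 2.19 and LAT at 3.32, and the sum was 1.83 times higher. The summed epithelial markers in T cells, given above, ran the other way with age, and their part in these ratios was not tested.

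The split of T cells by coreceptor used a UMI of CD8A, a chain of the coreceptor for MHC class I, or of CD4, the coreceptor for class II. Cells with CD8A and no CD4 numbered 210, 128, 52, 106, 102 and 51 in order of age, and those with CD4 and no CD8A 111, 214, 67, 83, 34 and 23. Most T cells had neither. Their share was 82.6%, 78.9%, 64.8%, 51.4%, 59.1% and 57.9% in order of age. When each cell was thinned to 1000 UMIs, the shares were 94.2%, 93.3%, 91.4%, 82.6%, 82.9% and 78.1%. Within each library the share without a coreceptor UMI thus grew when depth was lowered by thinning. Cells that lack both coreceptors cannot be told apart from cells in which neither was captured. After thinning, the share was still lower on day 21 than on day 0, with counting intervals of 71.3% to 83.9% and 93.0% to 95.2%. T cells with both numbered 1 to 21 per library and are not described further.

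LAT was lower in CD8A than in CD4 T cells. In CD4 T cells it stood at 1.17, 1.09, 1.39, 2.88, 5.12 and 4.02 per 10000 in order of age, and in CD8A T cells of the same libraries at 0.247, 0.629, 0.587, 1.51, 1.49 and 1.56. The CD4 level was above the CD8A level in 6 of 6 libraries, by 1.74 to 4.73 times, and in each library the counting interval of the ratio lay above 1. With the libraries as blocks, edgeR's quasi-likelihood test gave a log2 fold change of -1.40 ± 0.18 (SE, 6 libraries) for CD8A against CD4 T cells, at a Benjamini-Hochberg adjusted p of 7.7e-05. Without the library block the log2 fold change was -1.37 and the adjusted p 0.14. In the other 16 alternatives LAT stayed past the threshold, with adjusted p from 2.2e-12 to 0.013.

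CD247 went the other way. It stood at 1.99, 2.15, 4.07, 4.98, 4.75 and 5.23 per 10000 in CD8A T cells and at 1.72, 1.47, 3.35, 3.04, 2.28 and 2.68 in CD4 T cells. CD8A T cells were higher in 6 of 6 libraries, and the counting interval of the ratio excluded 1 on days 1, 7, 14 and 21. The log2 fold change was 0.54 ± 0.14, at an adjusted p of 0.031. Over 17 alternatives the log2 fold change kept its sign, at 0.37 to 0.80, and the adjusted p ran from 0.018 to 0.40. The call was lost in 9 of them, among them the fits without the library of day 1, 7, 14 or 21, where the log2 fold change was 0.57, 0.51, 0.45 and 0.49. NK cell and cytotoxic markers moved with it. Their list of 12 summed to 7.91 to 34.4 per 10000 in CD8A T cells and to 0.12 to 1.16 in CD4 T cells, where NCR1 was at 0 in every library, and its part in the CD247 difference was not tested.

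For the other members that were tested, no difference between CD8A and CD4 T cells passed the threshold. The log2 fold change was -0.03 for LCK, with a 95% interval of -0.35 to 0.29. The interval for THEMIS was wider, at -0.56 to 0.44, and that for CD7 wider still, at -0.67 to 0.79. CD3D did not pass the filter on low counts. CD3E and CD3G chose the cells of both classes and are not read here. Of the 5 other members tested, 1 was called higher and 1 lower in CD8A T cells, where 3.23% of the 5076 genes tested were called higher and 1.77% lower. Among the 2775 genes at the level of the low-count filter in every sum of both classes, the shares were 1.62% and 1.98%. CD7 was below that level in the CD4 T cells of days 14 and 21.

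For CD7 a mean over the libraries hides a change of direction. CD4 T cells held 2.55, 2.18, 2.32, 0.306, 0.0711 and 0.122 UMIs per 10000 in order of age, and CD8A T cells 1.38, 2.13, 1.14, 0.909, 0.466 and 2.67. CD4 T cells were higher on days 0 and 3, not apart from CD8A T cells by counting error on day 1, where the ratio was 1.02 (0.83 to 1.25), and lower on days 7, 14 and 21. On days 14 and 21 the CD4 T cells had 1 CD7 UMI each, in 34 and 23 cells. The ratio of CD4 to CD8A T cells was 1.85 (1.46 to 2.35) on day 0 and 0.0456 (0.0011 to 0.27) on day 21. In the T cells without a coreceptor UMI, CD7 stood at 2.09 on day 21. They held 57 of the 106 CD7 UMIs of the T cells of that library, and CD8A T cells held 48.

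**Figure D3:**
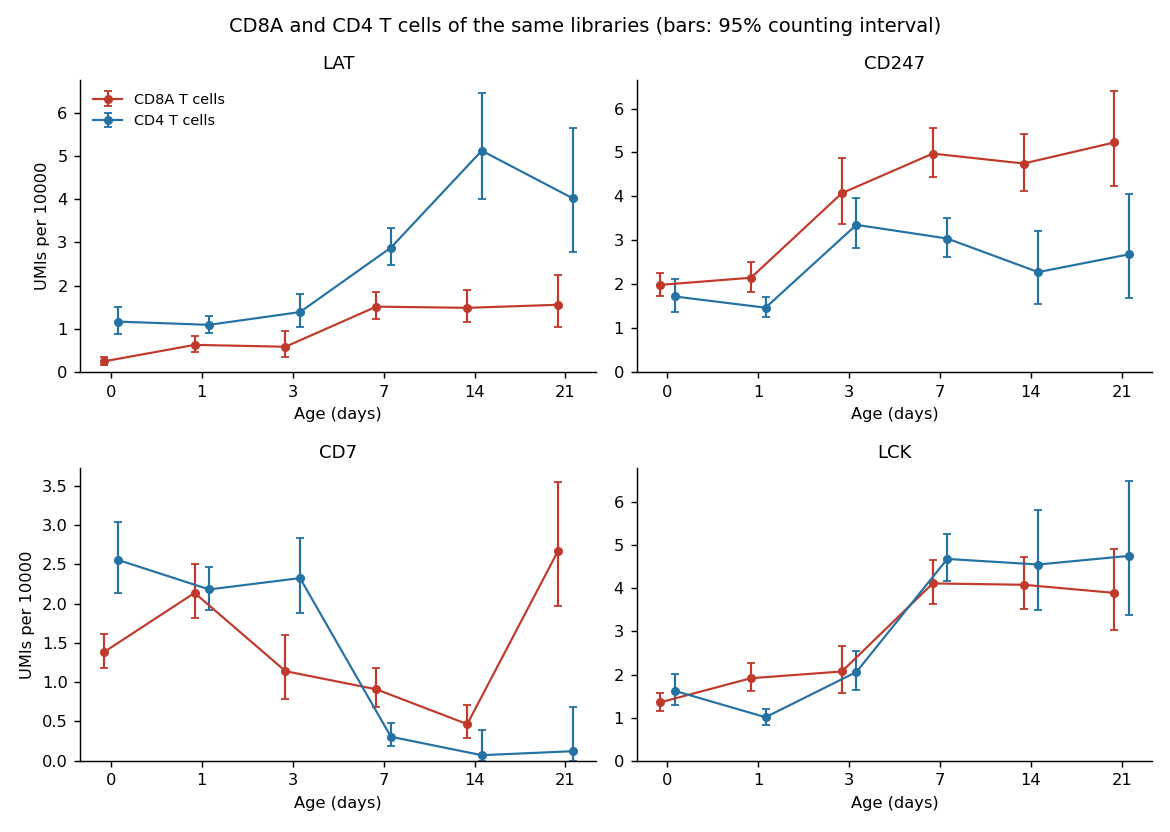
Levels of LAT, CD247, CD7 and LCK (UMIs per 10000, each axis from 0) by age in days in CD8A T cells (red) and CD4 T cells (blue) of the same library. Points are levels over the cells of a class and bars 95% counting intervals. The blue points lie above the red ones for LAT in all 6 libraries and below them for CD247, while for CD7 the order turns between day 3 and day 7.

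For the sum of the 6 members, the ratio of day 21 to day 0 was 2.55 (2.21 to 2.95) in CD8A T cells, 2.50 (2.25 to 2.78) in T cells without a coreceptor UMI and 1.52 (1.21 to 1.89) in CD4 T cells, below the 2.42 of all T cells. In CD4 T cells, CD7 alone gave 129 of the 406 UMIs of the sum on day 0 and 1 of 100 on day 21, so the lower ratio is not one of all members. LCK was 2.87 times higher on day 21 in CD8A T cells (2.14 to 3.83), 2.93 times in CD4 T cells (1.95 to 4.34) and 2.83 times in T cells without a coreceptor UMI (2.29 to 3.45). LAT was 6.30 times higher in CD8A T cells (3.61 to 11) and 3.44 times in CD4 T cells (2.18 to 5.36). CD247 was 2.63 times higher in CD8A T cells (2.05 to 3.36), and in CD4 T cells the interval of its ratio, 0.93 to 2.51, held 1. CD7 in CD4 T cells was at 0.048 times its day 0 level (0.0012 to 0.27), and for THEMIS the interval of 0.15 to 1.54 held 1. These differences between the classes were not tested, as each age has 1 library.

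Other genes of the pathway were tested in the same fit. A gene that passes the filter on low counts only because it is high in one class has to differ, so counts are given for genes at the level of the filter, here 0.209 per 10000, in all 6 libraries of both classes. Of 2775 such genes 1.62% were called higher in CD8A than in CD4 T cells and 1.98% lower. Of 11 genes of proximal signalling, 1 was higher, the adaptor LCP2 with a log2 fold change of 0.57 ± 0.16. Of 10 brakes on receptor signalling, 2 were higher, the ubiquitin ligase gene CBLB at 1.01 ± 0.18 and the adaptor SLA2 at 0.86 ± 0.16, and 1 was lower, the surface receptor CD5 at -0.88 ± 0.17. Of 3 genes of the later steps, MALT1 was lower, at -0.96 ± 0.20. The 3 genes of costimulation and adhesion and the 1 receptor adaptor of innate cells at that level did not pass the threshold. LAT2, a relative of LAT, was the 1 gene of the B cell receptor pathway at that level and was higher, at 1.19 ± 0.20. The rest are given by their levels alone. CD96, a surface receptor, stood at 0.534 to 2.11 per 10000 in CD8A T cells and at 0 to 0.119 in CD4 T cells. FCER1G, an adaptor of innate receptors, stood at 1.61 to 3.06 and at 0 to 0.207, and CD8B, the partner chain of CD8A, at 0.414 to 1.45 and at 0 to 0.0479. The costimulatory receptor ICOS stood at 0.0937 to 1.5 in CD8A T cells and at 0.407 to 2.32 in CD4 T cells. In the same order, KLRK1 stood at 1.28 to 3.73 and 0 to 0.287, and PLCG2 at 0.287 to 0.621 and 0 to 0.193. TXK stood at 0.334 to 0.929 and 0.0644 to 0.575, and PPP3CA at 0.462 to 0.89 and 0 to 0.431. Of the brakes, PTPN22 stood at 0.861 to 1.42 and 0.191 to 1.58. UBASH3B stood at 0.287 to 0.621 and 0.108 to 0.975, and PTPN6 at 0.605 to 1.64 and 0.133 to 0.838.

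T cells without a coreceptor UMI were compared with CD8A T cells. LAT stood at 0.534, 0.907, 0.891, 1.76, 1.86 and 2.27 per 10000 in them, above the CD8A level and below the CD4 level in 6 of 6 libraries. The counting interval of the ratio to CD8A T cells lay above 1 on days 0 and 1 and held 1 in the other 4 libraries. The log2 fold change against CD8A T cells was 0.56 ± 0.12, at an adjusted p of 0.018. Over 17 alternatives it was 0.38 to 0.81 and the call held in 10, with adjusted p from 0.0007 to 1.0. It was lost without the library of day 0, 1, 14 or 21, where it was 0.45, 0.54, 0.63 and 0.57. For THEMIS the log2 fold change was 0.36 ± 0.13 (adjusted p 0.29). CD247, LCK and CD7 also did not pass the threshold, with intervals of -0.26 to 0.10, -0.35 to 0.06 and -0.31 to 0.12. In this comparison 0.751% of 6392 genes were called higher and 0.344% lower. Among the 4167 genes at the level of the filter, 0.14 per 10000, in all libraries of both classes the shares were 0.648% and 0.264%. BLK, a kinase of the LCK family, was below that level in some CD8A sums and is given by its levels, 0.132 to 0.909 per 10000 in cells without a coreceptor UMI and 0.041 to 0.178 in CD8A T cells.

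Innate lymphoid cells carry no antigen receptor, and they were compared with T cells of the same library. The rule for these cells used CD3E and CD3G, whose levels are therefore a description, at no more than 0.0358 and 0.0507 per 10000 on days 0 to 14. CD3D was found with 1 UMI in innate lymphoid cells of these 5 libraries and with 255 in T cells, a ratio of T to innate lymphoid cells of 140 with a counting interval of 24.8 to 5532.

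CD7 was also far lower in innate lymphoid cells, which had 7, 5, 9, 0 and 2 UMIs on days 0, 1, 3, 7 and 14, or 0.0228, 0.0149, 0.0169, 0 and 0.0338 per 10000, where the 0 of day 7 allows up to 0.0502 if 3 UMIs are taken as the most that a count of 0 allows. In T cells the level was 0.442 or more in every library. The log2 fold change in edgeR was -6.31 ± 0.29 (SE, 5 libraries), a description, since CD7 passed the filter on low counts only through the T cells. A CD7 UMI was found in 0 to 1.83% of innate lymphoid cells at a median of 4371 to 7190 UMIs, and in 0.0145% to 0.549% of B cells, which should lack it, at 3623 to 4798 UMIs. The shares in innate lymphoid cells of days 0 to 14 were 1.16%, 1.18%, 0.395%, 0 of 96 (upper bound 3.77% by the exact binomial interval) and 1.83%.

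CD247, LCK and LAT were lower in innate lymphoid cells than in T cells. CD247 stood at 0.176, 0.0893, 0.124, 0.285 and 0.828 per 10000, each below T cells of the same library, with a log2 fold change of -3.78 ± 0.29 and an adjusted p of 1.6e-05. LCK stood at 0.192, 0.167, 0.209, 0.268 and 1.12, at -2.93 ± 0.26 and 3.5e-05. LAT stood at 0.104, 0.0655, 0.0789, 0.134 and 0.254, at -3.31 ± 0.22 and 7.3e-06. Barcodes with 100 UMIs or fewer, taken to stand for RNA free in the suspension, gave CD247 at 0.329, 0.238, 0.493, 0.939 and 1.60 in the same libraries, above the innate lymphoid cells in 5 of 5. They gave LCK at 0.288, 0.230, 0.426, 0.602 and 0.684, above the innate lymphoid cells on days 0 to 7, and LAT at 0.110, 0.109, 0.0519, 0.183 and 0.0832, above them on days 0, 1 and 7. These barcodes give the make-up of free RNA, not its amount in a cell. Levels at or below them are read neither as expression nor as its absence, which was not tested. For CD247, LCK and LAT the library of day 14 held the highest level in innate lymphoid cells. The 7 B cell markers were also highest there, at 0.73, 0.68, 2.94, 5.36 and 8.91 per 10000 in innate lymphoid cells, and 26, 21, 146, 28 and 41 of these cells had a UMI of MS4A1 or PAX5. The part of B cell RNA in these levels was not tested. Leaving out each library in turn kept the log2 fold change of CD247 between -4.13 and -3.47, that of LCK between -3.26 and -2.78 and that of LAT between -3.60 and -3.14.

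THEMIS was the exception. Innate lymphoid cells held it at 0.631, 0.503, 0.898, 0.888 and 0.744 per 10000 on days 0, 1, 3, 7 and 14, where T cells held 0.651, 0.488, 1.30, 0.512 and 0.884. The ranges overlapped, and the log2 fold change was -0.02 ± 0.17, with a 95% interval of -0.40 to 0.35 (adjusted p 0.95). The libraries were not alike, since the ratio of innate lymphoid to T cells was 0.693 (0.59 to 0.81) on day 3 and 1.73 (1.23 to 2.41) on day 7. THEMIS was near 0 in B cells, at 0 to 0.00859 per 10000 in the 6 libraries, and at 0.0959 or less in the barcodes with 100 UMIs or fewer. On day 3 the innate lymphoid cells held 478 THEMIS UMIs and the T cells 247. CD247, LCK and LAT were called lower in innate lymphoid cells and THEMIS was not called, where 10.3% of 9546 genes were called lower and 10.9% higher. Among the 7440 genes at the level of the low-count filter in every sum of both classes, the shares were 8.51% and 10.5%. CD3D and CD7, which passed the filter on low counts only through the T cells, are not counted.

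**Figure D4:**
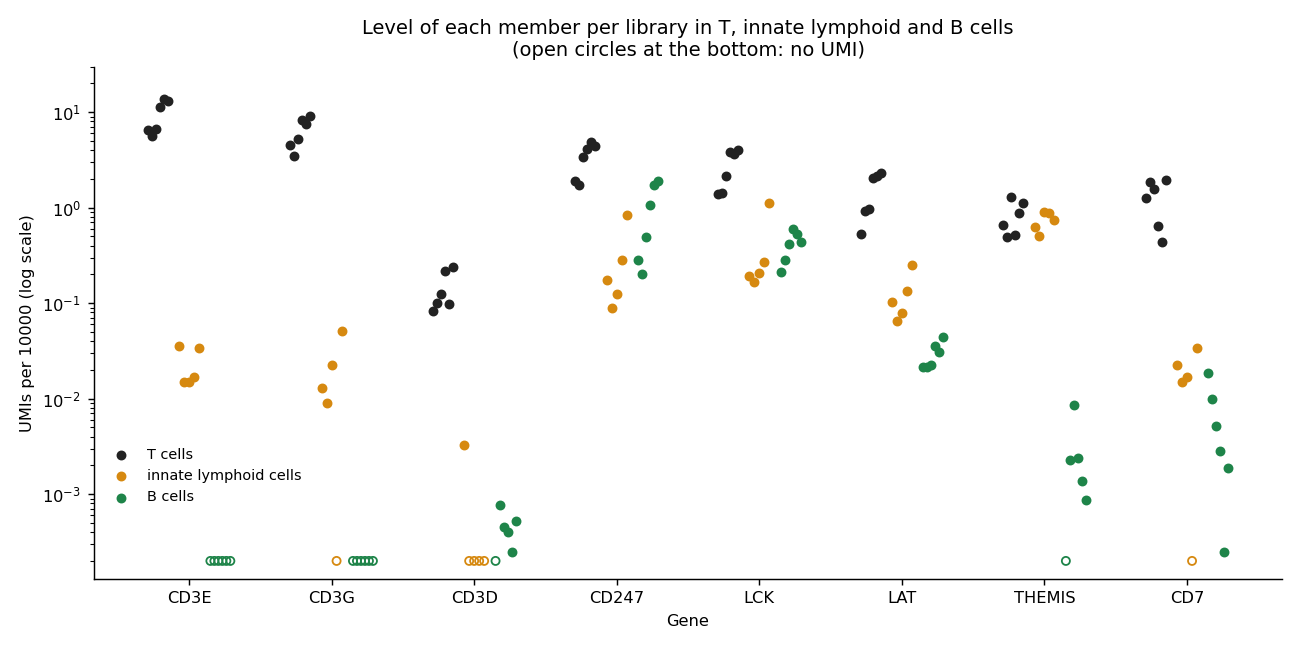
Level of each member (UMIs per 10000, log axis) in T cells, innate lymphoid cells and B cells, each point a library, 6 for T and B cells and 5 for innate lymphoid cells, in order of age from left to right within a group. Open circles at the bottom are libraries with no UMI. For THEMIS the innate lymphoid points, 0.503 to 0.898, lie among the T cell points, while for CD7 they lie at 0.0338 or below and the T cell points at 0.442 or above.

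Related genes divided in the same comparison. Among 7440 genes at the level of the filter, 0.0362 per 10000, in all 5 libraries of both classes, 8.51% were called lower in innate lymphoid cells and 10.5% higher. Of 17 such genes of proximal signalling, 9 were lower and 2 higher. The lower ones included PAG1, which anchors the LCK inhibitor CSK, with a log2 fold change of -2.07 ± 0.25, the adaptor LAX1 at -1.88 ± 0.29, the phosphatase PTPRC at -1.59 ± 0.14 and the adaptor FYB at -1.53 ± 0.13. Of 11 genes of the later steps, 2 were lower and 4 higher. The transcription factors NFATC2 and NFKB1 were higher, at 1.51 ± 0.11 and 1.05 ± 0.15, and STIM1 was lower, at -0.83 ± 0.18. Of 15 brakes, 4 were lower and 2 higher, with DGKA at -2.14 ± 0.21, CD5 at -0.93 ± 0.14, SPRY1 at 2.92 ± 0.26 and SLA at 1.28 ± 0.15. Of 4 genes of costimulation and adhesion, CD96 was lower, at -1.02 ± 0.20, and CD48 higher, at 0.47 ± 0.12. Of 4 adaptors and receptors of innate cells, TYROBP was higher at 3.60 ± 0.31, FCER1G at 1.49 ± 0.21 and HCST at 1.31 ± 0.17, while the receptor KLRK1 was lower at -2.53 ± 0.14. Of 5 genes of the B cell receptor pathway, 4 were higher and none lower, with CD79B at 1.97 ± 0.26, LYN at 1.47 ± 0.28, PLCG2 at 1.23 ± 0.17 and LAT2 at 1.09 ± 0.13. CD79B is one of the B cell markers whose sum is given above. The T cell gate barred UMIs of MS4A1 and PAX5, while the gate of innate lymphoid cells did not. The part of this unequal gating in the differences was not tested. Genes below the level of the filter in innate lymphoid cells of some or all libraries are described by their levels. PLCG1, the phospholipase that LAT recruits, stood at 0 to 0.026 per 10000 in these cells and at 0.159 to 0.337 in T cells, CD6 at 0 to 0.0065 and 0.178 to 0.594, and CD28 at 0 to 0.00975 and 0.0839 to 0.213. CD27 stood at 0.0056 to 0.0338 and 0.233 to 0.493, and CD226 at 0.0119 to 0.0338 and 0.119 to 0.294. SH2D1A stood at 0 to 0.0225 and 0.0995 to 0.382, and GRAP2 at 0.0188 to 0.101 and 0.389 to 0.659. PRKCQ stood at 0.0268 to 0.184 and 0.248 to 0.607, and UBASH3A at 0.0228 to 0.0837 and 0.147 to 0.304. BLK, of the B cell receptor pathway, stood at 0.0195 to 0.389 and 0.107 to 0.577.

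The T cells held only part of the UMIs of the members outside the gate. On day 0 the T cells held 72.1% of the CD7 UMIs of all cells, 63.6% of those of LCK, 61.5% of THEMIS, 55.1% of CD247 and 53.8% of LAT. On day 21 they held 48.2%, 7.0%, 45.5%, 1.94% and 24.0% in the same order. These shares leave out the cells with CD3 that were set aside for a B cell UMI. Over these ages the number of B cells went up, and the UMIs of CD247 over all cells went from 3280 to 12218 while those of CD3E went from 6837 to 1381.

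B cells held CD247 at 0.283, 0.203, 0.492, 1.06, 1.73 and 1.89 per 10000 in order of age, and LCK at 0.213, 0.282, 0.419, 0.597, 0.534 and 0.435. The other members were low in B cells, with LAT at 0.0214 to 0.0445, CD7 at 0.0187 or less and CD3D at 0.00077 or less. The barcodes with 100 UMIs or fewer, given above for days 0 to 14, gave CD247 at 1.77 and LCK at 0.533 on day 21. The B cell level of CD247 lay below these barcodes on days 0, 1 and 3, and that of LCK in every library but that of day 1. As these barcodes give the make-up of free RNA and not its amount in a cell, such levels are read neither as expression nor as its absence. The same holds for the UMIs outside T cells that rest on them, and neither was tested. Myeloid cells, which should lack CD247, gave 0.032 to 0.177 on days 0 to 14, below the B cells in every one of these libraries.

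**Figure D5:**
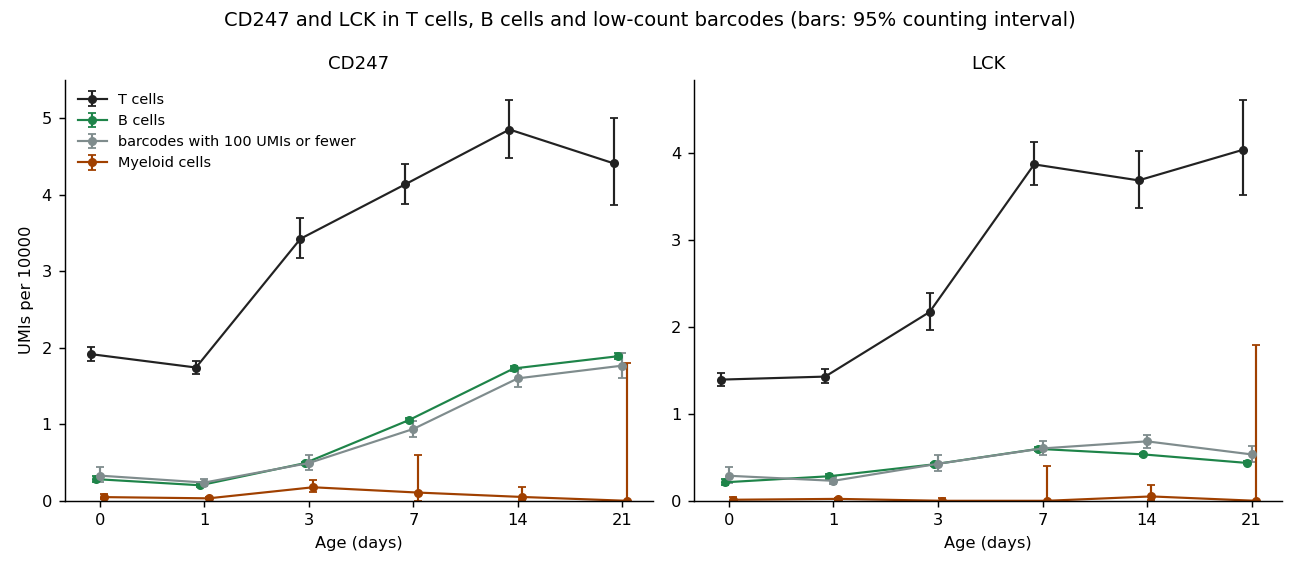
Levels of CD247 (left) and LCK (right) in UMIs per 10000, each axis from 0, by age in days in T cells, B cells, myeloid cells and barcodes with 100 UMIs or fewer. Points are levels over the cells or barcodes of a class in 1 library and bars 95% counting intervals. CD247 goes from 0.283 on day 0 to 1.89 on day 21 in B cells, close to the low-count barcodes, and T cells lie above both at every age.

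The genes whose levels were most like the sum of the 6 members were looked up over 36 sums of library and class, namely the 4 T cell classes, innate lymphoid cells, B cells and all other cells, where at least 20 cells were present. The measure was Pearson's r of log2 levels with 0.1 added. Sums of 1 library share their depth, free RNA and preparation, so r is a description. The 10 highest were RAB37 at 0.93, PPP1R16B at 0.92, STK39, CD27 and LAPTM5 at 0.91, LAX1, CD6 and PRKCQ at 0.90, and GIMAP7 and RAPGEF6 at 0.89.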

How the data were processed

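The scRNA-seq libraries of the 6 ages were made by the authors with 10x Chromium 3′ kits, given as version 2 in the paper and version 3 in the labels. The submitters' processing notes name Cell Ranger 3.1.0 and STAR, against susScr11 (Sscrofa11.1). Each deposited matrix holds raw UMI counts for all barcodes, not filtered or scaled. The series text names the cecum, the sample labels the ileum, which is used here.

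Cells, T cells, coreceptor classes and innate lymphoid cells were cut by the UMI thresholds stated with the results. No doublet caller was run. An alternative left out cells of every class with UMIs of 9 genes of other lineages. Counts were summed per library and class, and classes compared with edgeR 4.0.16 (R 4.3.3) by the quasi-likelihood test with TMM factors, a low-count filter, the library as a block, at least 20 cells per sum and Benjamini-Hochberg adjustment over all genes, two-sided at 0.05. Genes that tell the compared classes apart were set aside. CD3E and CD3G, which chose the cells of all T cell classes, stayed in the fits between them but are not read as results. The p-values measure the spread between libraries of different ages, not between animals. Ages were compared by ratios with exact conditional intervals (scipy 1.17.1), without a test. All members are named. Of each related list at most 4 genes are named with a fold change, those with the largest change past the threshold among genes at the filter level in every sum of both classes, a restriction chosen after seeing the data. Others of the 4 with the largest change in the whole list are given by levels. Of the coreceptor chains only CD8B is given so, for CD8A against CD4 T cells. A list gene shared with the members was counted only as a member. Members, gene lists and gates were chosen with earlier results of these data known. Ratios and fits were tested on simulated data. Positions come from the reference table of the same assembly. A further result is left out of this account.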

Additional observations from a re-analysis of the deposited data

Results flagged for a closer look

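The ratio of CD4 to CD8A T cells for CD7 lay above 1 in some libraries and below 1 in others by its counting interval, which is why it stands here. It was 1.85 and 2.04 for days 0 and 3, and 0.336, 0.153 and 0.0456 for days 7, 14 and 21. The difference between ages was not tested, since each age has 1 library. THEMIS in innate lymphoid against T cells turned likewise, from 0.693 on day 3 to 1.73 on day 7, with 247 and 125 THEMIS UMIs in the T cells, and this was not tested either. LCK in innate lymphoid against B cells was 0.590, 0.498 and 0.449 for days 1, 3 and 7, and 2.09 for day 14, where innate lymphoid cells held LCK at 1.12 per 10000 from 66 UMIs in 109 cells, also untested. The summed B cell markers of the innate lymphoid cells were highest in the same day 14 library among those used.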

How the results depend on the processing

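Counts of genes higher and lower in CD8A against CD4 T cells, 164 and 90, became 309 and 183 without the low-count filter, 62 and 6 without the library block and 40 and 37 after thinning to 1000 UMIs. The lower ones became 57 with 3 or more CD3 UMIs and 41 with at least 50 cells. In this comparison the settings of 3 or more CD3 UMIs, of 2000 UMIs and without other lineages also lost the day 21 library, and that of 50 cells the libraries of days 14 and 21, so their values mix both changes. Without the day 21 library alone the counts were 164 and 79. Leaving out each library gave 117 to 164 and 53 to 79. For innate lymphoid against T cells, 1043 and 988 became 545 and 410 without the block and 534 and 458 after thinning, and 1495 were lower without the filter. Leaving out each library gave 780 to 1053 and 568 to 1018. For T cells without a coreceptor UMI against CD8A T cells, 48 and 22 became 168 and 96 without the filter, 20 and 11 in DESeq2 1.42.0, and 20 and 10 after thinning. There were 30 higher with 3 or more CD3 UMIs and 13 lower with MS4A1 and PAX5 allowed. Without the block edgeR called 0 higher and 1 lower, with 98 at an unadjusted p below 0.05. Leaving out each library gave 19 to 48 and 9 to 42.

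The ratio of the summed members, day 21 over day 0, of 2.42 was 1.82 in T cells without UMIs of other lineages, 1.87 after thinning, 1.81 with T cells chosen by CD5, CD6, CD28 and CD8B, 1.85 as a mean over cells, 1.83 with TMM factors and 2.11 with MS4A1 and PAX5 allowed, the last chosen after seeing the data.

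Signs turned only for members that never passed the threshold. For CD8A against CD4 T cells, CD3E, a gene of the gate, turned from -0.07 to 0.17 after thinning. LCK became 0.00054 with 3 or more CD3 UMIs, 0.0089 with 2000 UMIs per cell, 0.041 with 50 cells and -0.21 to 0.039 without a library. THEMIS became 0.0099 in DESeq2, 0.18 with MS4A1 and PAX5 allowed, 0.037 after thinning and -0.27 to 0.10 without a library. CD7 became -0.19 with 3 or more CD3 UMIs, -0.18 with 2000 UMIs, -0.30 with 50 cells, -0.35 without other lineages, -0.12 without the block, -0.33 after thinning and -0.18 to 0.41 without a library, with -0.18 for the day 21 library. THEMIS in innate lymphoid cells became 0.21 with MS4A1 and PAX5 allowed and -0.19 to 0.14 without a library. The cause was not tested. Between ages, no paired analysis was possible because each age has 1 library. The class comparisons are paired, with the library as the block. Depth limits CD3D, with 13 to 86 UMIs in the T cells of a library.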
